A study of Mus musculus with 11 samples.

Results

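Interferon response genes are the genes that cells switch on when interferon binds their surface. They were followed here across livers of mouse models of hepatoblastoma, the childhood liver cancer. The set held 38 genes chosen by name, and a probe was assigned to a gene where its accession belonged to that symbol in RefSeq. Of the 38 genes, 36 had a probe and all 36 were well above background on all 11 arrays, out of 13963 named genes tested. Mx1 and Mx2, both antiviral GTPases, had no probe under this rule and were not analysed here. The set was split by known role into 8 interferon-inducible GTPases, 20 genes of the antiviral response best known from type I interferon (18 with a probe), 5 transcription factors, 3 subunits of the immunoproteasome and 2 chemokines.

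Liver RNA of 11 male mice was hybridised, 1 mouse to each 1-colour Agilent array. Of the livers, 4 were labelled β-catΔEx3:Myc, 3 β-catΔEx3 and 4 WT. β-catΔEx3 is β-catenin without the part encoded by its exon 3, which escapes the phosphorylation that leads to its degradation and so keeps Wnt signalling on, and Myc is a growth-promoting transcription factor. All mice were of a hybrid strain that was mostly B6SJL with a little 129S6, were untreated and were 22 to 40 days old, and single ages are given only for 1 mouse of each group (29 days for β-catΔEx3:Myc replicate 4, 30 days for β-catΔEx3 replicate 3 and 31 days for WT replicate 4). The labels name no promoter or recombinase that drives either change. The series speaks of tumour-bearing livers for all 11 samples, WT included, and counts the β-catΔEx3:Myc livers only as expressing c-Myc. No source used here says whether tumour or surrounding tissue was taken.

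Type I interferons (the α and β interferons) bind the receptor made of Ifnar1 and Ifnar2, whose kinases Jak1 and Tyk2 activate a complex that holds Stat2 and Irf9. That complex binds the interferon-stimulated response element (ISRE) in front of antiviral genes. Interferon γ, made by T cells and NK cells, binds Ifngr1 and Ifngr2 and signals through Jak1 and Jak2 to genes that carry the γ-activated sequence (GAS). Interferon γ is the strongest known inducer of the immunity-related GTPases and guanylate-binding proteins, of the chemokine Cxcl9 and of the immunoproteasome, although type I interferon also acts on many of these genes. In liver, hepatocytes, Kupffer cells and endothelium can all respond to both kinds.

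The promoters of the set were read for these elements in the RefSeq sequences (GRCm38.p6) that run from 250 bases before to 50 bases after each start site. An ISRE core was searched as GAAA, any 2 bases and GAAA again, and a GAS as TTCNNNGAA, on both strands, and matches of the 2 motifs may overlap each other. A promoter was found for 29 of the 38 genes. The ISRE core stood in 16 of these 29 (55.2%), against 3.99% of all 27025 genes with a promoter. The GAS stood in 9 (31%), against 9.55% of all genes. By role, the ISRE core was present in 6 of 6 GTPase genes, 8 of 13 type I genes, 1 of 5 transcription factors, 0 of 3 immunoproteasome genes and 1 of 2 chemokines, and the GAS in 3, 3, 2, 1 and 0 of them. The following stretches, read 5′ to 3′ on the strand of the gene, show how the motifs (in capitals) lie in genes that the results turn on. Those of Gbp7, Gbp3, Stat2, Irf8 and Psmb8 follow from the rule for named genes, and those of Igtp, Irgm2, Isg15, Ifit1 and Bst2 were chosen after their values were seen.
Gbp7, chr3:142530210-142530312, plus strand: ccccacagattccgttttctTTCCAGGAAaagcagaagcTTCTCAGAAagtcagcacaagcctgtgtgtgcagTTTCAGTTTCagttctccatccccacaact
Gbp3, chr3:142559979-142560034, plus strand: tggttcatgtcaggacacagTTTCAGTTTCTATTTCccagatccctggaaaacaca
Igtp, chr11:58199491-58199551, plus strand: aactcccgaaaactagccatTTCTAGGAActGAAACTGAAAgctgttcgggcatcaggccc
Irgm2, chr11:58214882-58214942, plus strand: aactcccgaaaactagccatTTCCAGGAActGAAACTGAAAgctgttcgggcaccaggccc
Isg15, chr4:156200855-156200916, minus strand: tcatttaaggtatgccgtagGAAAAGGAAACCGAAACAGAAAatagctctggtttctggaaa
Ifit1, chr19:34640765-34640833, plus strand: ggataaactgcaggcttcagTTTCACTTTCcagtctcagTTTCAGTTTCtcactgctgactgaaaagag
Bst2, chr8:71537567-71537628, minus strand: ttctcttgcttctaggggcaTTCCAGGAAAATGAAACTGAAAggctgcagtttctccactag
Stat2, chr10:128270256-128270305, plus strand: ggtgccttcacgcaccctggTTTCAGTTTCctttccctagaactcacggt
Irf8, chr8:120736167-120736233, plus strand: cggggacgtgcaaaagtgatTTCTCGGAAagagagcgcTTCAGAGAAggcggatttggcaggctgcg
Psmb8, chr17:34198078-34198126, plus strand: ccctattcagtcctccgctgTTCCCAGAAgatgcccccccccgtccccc
Igtp and Irgm2, which start close to each other on chromosome 11, have the same arrangement of a GAS followed by an ISRE core, and 59 of the 61 bases of their stretches are identical. Gbp7 joins 2 GAS matches to an ISRE core, Isg15 has 3 overlapping ISRE cores in a row, Ifit1 has 2 cores apart from each other, and in Bst2 the GAS overlaps the first of 2 cores. Irf8 and Psmb8 showed GAS matches and no ISRE core in this window. A match is a string of letters and not a shown binding site.

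Expression is given as log2 level, the log2 processed signal of a probe minus the 75th percentile of its array. That percentile lay between 227 and 354.3 signal units, between 47.9% and 52.4% of probes passed as well above background, and none was saturated. The arrays came from 4 slides. Replicates 1 and 2 of β-catΔEx3:Myc and of β-catΔEx3 shared slide 2, β-catΔEx3:Myc replicate 3 was on slide 3, WT replicates 1 to 3 were on slide 1, and the last replicate of every group was on slide 4, so that most of the comparison with WT runs between slides. The Myc probe read 4.65, 3.13, 2.55 and 4.98 in β-catΔEx3:Myc livers, 2.44, 1.39 and 2.08 in β-catΔEx3 livers and 2.30, -0.12, 0.22 and -0.52 in WT livers, and the log2 fold change was 3.36 ± 0.68 in β-catΔEx3:Myc against WT (adjusted p = 0.00286) and 1.50 ± 0.73 in β-catΔEx3 against WT (adjusted p = 0.132). Whether the Ctnnb1 probe lies in exon 3 was not checked, and the groups overlapped for this probe. All 9 hepatocyte markers were above background in every group, and 5 of them fell in each mutant group, with summed linear signals of 4515 to 6566 in β-catΔEx3:Myc, 5215 to 6233 in β-catΔEx3 and 8142 to 10390 in WT livers. Kupffer cell and macrophage markers fell in both mutant groups (11 of 11 tested, each above background on some array of every group), and their summed linear signal ranged from 21.6 to 80.7 in β-catΔEx3:Myc, 25.4 to 74.6 in β-catΔEx3 and 288 to 443 in WT livers. Of all items tested, 17.3% fell in β-catΔEx3:Myc and 15.4% in β-catΔEx3.

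Most of the set was lower in both mutant groups than in WT. In β-catΔEx3:Myc against WT, 24 of 36 genes fell and 1, Usp18, rose, where 17.3% of all 22283 items tested fell and 24.8% rose (limma, Benjamini-Hochberg adjusted p under 0.05). In β-catΔEx3 against WT, 30 of 36 fell and 1, again Usp18, rose, where 15.4% of all items fell and 21.8% rose. The median log2 fold change of the 36 genes was -1.43 in β-catΔEx3:Myc and -2.19 in β-catΔEx3, against medians over all items of 0.13 and 0.10. Every β-catΔEx3:Myc array lay below every WT array for 23 of the 36 genes and for 17.7% of all items, and every β-catΔEx3 array did so for 30 genes and for 18.6% of all items. With slide fitted as a block, 2 of 36 genes fell in β-catΔEx3:Myc (Iigp1 and Bst2), where 4.45% of all items fell, and 2 in β-catΔEx3 (Iigp1 and Parp14), where 3.91% did, and Usp18 rose in both, as 4.25% of all items did in each. The block thus ended the other 22 calls of a lower level in β-catΔEx3:Myc and 28 in β-catΔEx3, and every call given below without mention of it comes from the fit without the block. Both comparisons use the same 4 WT livers, so they are not independent of each other. Scaling each array on probes detected on every array moved the medians over all items to -0.01 and -0.08 and the share of all calls that were higher to 48.3% (from 58.9%) and 42.2% (from 58.5%), and under it 24 and 32 genes of the set fell.

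**Figure D1:**
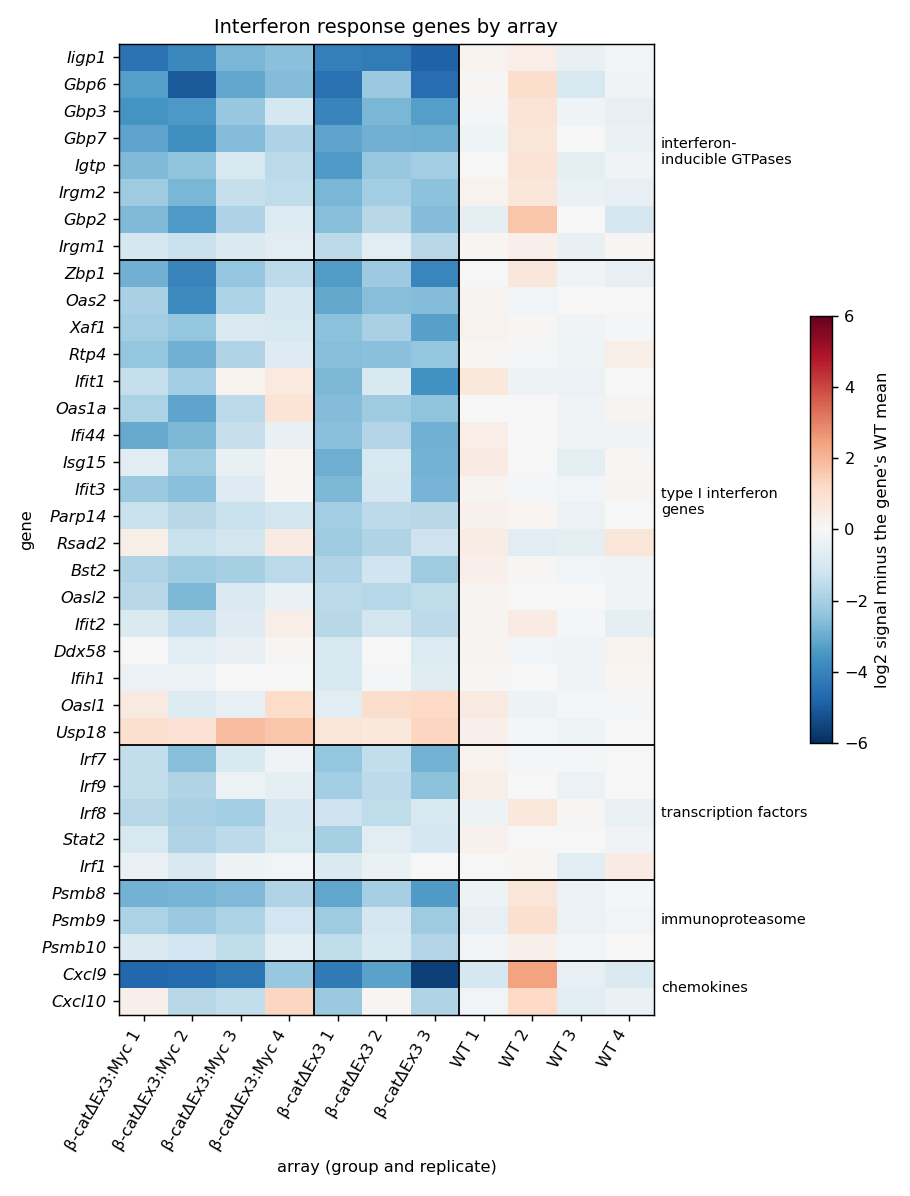
Colours give the log2 level of each of 36 interferon response genes (rows, by role) on each of 11 arrays (columns) minus the gene's mean over the 4 WT arrays. Blue cells are below the WT mean, and the GTPases and Psmb8, Psmb9 and Psmb10 are below it in every mutant liver, while Usp18 is above it in all 7.

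All 8 interferon-inducible GTPases fell in both mutant groups. These enzymes gather on vacuoles that hold parasites or bacteria and break them open, and they comprise the immunity-related GTPases Iigp1, Igtp, Irgm1 and Irgm2 and the guanylate-binding proteins Gbp2, Gbp3, Gbp6 and Gbp7. Their median log2 fold change was -2.39 in β-catΔEx3:Myc and -2.78 in β-catΔEx3. The log2 levels of Iigp1 were -0.22, 0.34, 1.45 and 1.73 in β-catΔEx3:Myc livers, 0.12, 0.02 and -0.62 in β-catΔEx3 livers and 4.42, 4.61, 3.76 and 4.07 in WT livers. No mutant value came near a WT value, and the log2 fold change was -3.39 ± 0.41 in β-catΔEx3:Myc against WT (adjusted p = 0.000167) and -4.38 ± 0.44 in β-catΔEx3 against WT (adjusted p = 9.05e-05), a fold of 10.5 and 20.7. Gbp6 stood at -1.33, -3.06, -1.13 and -0.65 in β-catΔEx3:Myc livers, -2.50, -0.26 and -2.59 in β-catΔEx3 livers and 2.06, 3.01, 1.03 and 1.78 in WT livers. The groups did not overlap, although β-catΔEx3 replicate 2 was far above the other 2 of its group, and the log2 fold change was -3.52 ± 0.66 in β-catΔEx3:Myc against WT (adjusted p = 0.00187) and -3.75 ± 0.71 in β-catΔEx3 against WT (adjusted p = 0.00253). Without β-catΔEx3 replicate 2 the Gbp6 value in β-catΔEx3 was -4.52. A second, dimmer Gbp6 probe, above background on all 11 arrays, gave smaller differences from WT, -2.41 in β-catΔEx3:Myc and -2.82 in β-catΔEx3.

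The other guanylate-binding proteins followed the same order. Gbp7 gave -2.64, -3.14, -2.04 and -1.33 in β-catΔEx3:Myc livers, -2.61, -2.32 and -2.36 in β-catΔEx3 livers and 0.29, 1.25, 0.51 and 0.12 in WT livers. The highest mutant and the lowest WT array were more than 1 log2 unit apart, and the log2 fold change was -2.83 ± 0.37 in β-catΔEx3:Myc against WT (adjusted p = 0.000251) and -2.98 ± 0.40 in β-catΔEx3 against WT (adjusted p = 0.00043). Gbp3, on chromosome 3 like Gbp7, gave -1.43, -1.32, -0.15 and 1.09 in β-catΔEx3:Myc livers, -1.82, -0.59 and -1.17 in β-catΔEx3 livers and 2.08, 2.96, 1.88 and 1.64 in WT livers. β-catΔEx3:Myc replicate 4 was the highest mutant liver for Gbp3 and still below WT, and the log2 fold change was -2.59 ± 0.54 in β-catΔEx3:Myc against WT (adjusted p = 0.0034) and -3.34 ± 0.58 in β-catΔEx3 against WT (adjusted p = 0.00172). Gbp2 was the exception to clean separation, since β-catΔEx3:Myc replicate 4 (0.50) lay above WT replicate 4 (0.34). Its log2 fold changes, -2.18 ± 0.63 in β-catΔEx3:Myc and -2.27 ± 0.68 in β-catΔEx3, lost their call when β-catΔEx3:Myc replicate 2 or β-catΔEx3 replicate 1 or 3 was left out (adjusted p 0.0511, 0.0772 and 0.0731).

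The immunity-related GTPases with the matched promoters also fell together. Igtp fell by 1.91 on the log2 scale in β-catΔEx3:Myc and by 2.58 in β-catΔEx3, and Irgm2 fell by 1.94 and 2.44 (standard errors between 0.34 and 0.48). Irgm1, which regulates the others and guards autophagy, had the smallest change of the 8 GTPases, -0.98 ± 0.26 and -1.30 ± 0.28. Irgm1 also has ISRE cores close to its start and no GAS match.

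Of the 18 type I genes, 8 fell and 1 rose in β-catΔEx3:Myc, and 14 fell and 1 rose in β-catΔEx3. Their medians were -1.36 and -1.97. Zbp1, a sensor of Z-form nucleic acid that starts necroptosis, read -0.22, -1.27, 0.33 and 1.12 in β-catΔEx3:Myc livers, -0.69, 0.50 and -1.25 in β-catΔEx3 livers and 2.67, 3.37, 2.46 and 2.19 in WT livers. All 7 mutant values lay below all 4 WT values, and the log2 fold change was -2.68 ± 0.52 in β-catΔEx3:Myc against WT (adjusted p = 0.00224) and -3.15 ± 0.56 in β-catΔEx3 against WT (adjusted p = 0.00183). Oas2, which makes the oligoadenylate that activates RNase L, read 0.38, -1.47, 0.43 and 1.31 in β-catΔEx3:Myc livers, -0.71, -0.22 and -0.25 in β-catΔEx3 livers and 2.48, 2.18, 2.36 and 2.35 in WT livers. Its WT livers lay close together while the mutant livers spread more widely below them, and the log2 fold change was -2.18 ± 0.46 in β-catΔEx3:Myc against WT (adjusted p = 0.00379) and -2.74 ± 0.50 in β-catΔEx3 against WT (adjusted p = 0.00217). Rtp4, an interferon-induced chaperone of taste and opioid receptors, read 2.21, 1.65, 2.73 and 3.72 in β-catΔEx3:Myc livers, 1.96, 1.99 and 2.17 in β-catΔEx3 livers and 4.57, 4.39, 4.23 and 4.86 in WT livers. The groups did not overlap, and the log2 fold change was -1.94 ± 0.36 in β-catΔEx3:Myc against WT (adjusted p = 0.00198) and -2.48 ± 0.39 in β-catΔEx3 against WT (adjusted p = 0.00104).

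Xaf1, which promotes cell death, gave -1.56 ± 0.38 in β-catΔEx3:Myc and -2.55 ± 0.41 in β-catΔEx3, with -0.03, -0.25, 1.22 and 1.13 in β-catΔEx3:Myc livers, -0.39, 0.14 and -1.18 in β-catΔEx3 livers and 2.30, 2.14, 1.86 and 1.99 in WT livers. A second, dim Xaf1 probe, above background on 4 arrays, disagreed in β-catΔEx3 (1.48). Among the 11 genes with several probes it was the only one whose probes differed in sign in a comparison with WT. Bst2 (tetherin, which holds budding virus on the cell surface) and Parp14 (an ADP-ribosyltransferase) had the smallest errors of the called type I genes, with -1.89 ± 0.21 and -1.71 ± 0.23 for Bst2 and -1.35 ± 0.19 and -1.77 ± 0.20 for Parp14 in β-catΔEx3:Myc and β-catΔEx3. Ifi44 and Oasl2 also fell in both groups, by 1.89 and 2.39 for Ifi44 and by 1.40 and 1.60 for Oasl2.

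A group of classical antiviral genes passed the test in β-catΔEx3 and not in β-catΔEx3:Myc: Isg15 (a ubiquitin-like modifier), Ifit1, Ifit2 and Ifit3 (which bind foreign RNA), Oas1a and Rsad2 (viperin). The difference between the mutant groups did not reach a limma adjusted p under 0.05 for any of them, although Isg15, Ifit1 and Rsad2 had an unadjusted p under 0.05. Isg15, shown by array because its mutant groups look unlike each other, read 4.71, 3.17, 4.86 and 5.42 in β-catΔEx3:Myc livers, 2.41, 4.35 and 2.51 in β-catΔEx3 livers and 5.82, 5.28, 4.80 and 5.40 in WT livers. Only β-catΔEx3:Myc replicate 2 was clearly below WT in its group, while 2 of 3 β-catΔEx3 livers were, and the log2 fold change was -0.79 ± 0.53 in β-catΔEx3:Myc against WT (adjusted p = 0.262) and -2.23 ± 0.57 in β-catΔEx3 against WT (adjusted p = 0.012). Oas1a, chosen likewise, read 1.75, 0.50, 2.10 and 4.49 in β-catΔEx3:Myc livers, 1.04, 1.53 and 1.22 in β-catΔEx3 livers and 3.66, 3.70, 3.43 and 3.84 in WT livers. β-catΔEx3:Myc replicate 4 was the highest of all 11 livers for Oas1a and the other 3 were below every WT liver, and the log2 fold change was -1.45 ± 0.65 in β-catΔEx3:Myc against WT (adjusted p = 0.0959) and -2.39 ± 0.70 in β-catΔEx3 against WT (adjusted p = 0.0214). Without β-catΔEx3:Myc replicate 4, Oas1a was called in β-catΔEx3:Myc at -2.21 (adjusted p = 0.000898), and Ifit2 and Ifit3 were called too, at -1.05 and -1.84.

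The calls of these genes in β-catΔEx3 also rested on few livers. Ifit1 read -2.03, -2.62, -0.37 and -0.02 in β-catΔEx3:Myc livers, -3.28, -1.54 and -4.25 in β-catΔEx3 livers and 0.03, -0.91, -0.97 and -0.58 in WT livers. β-catΔEx3 replicate 3 was the lowest of all 11 livers and replicate 2 was below every WT liver by a smaller margin, and the log2 fold change was -0.66 ± 0.67 in β-catΔEx3:Myc against WT (adjusted p = 0.461) and -2.42 ± 0.72 in β-catΔEx3 against WT (adjusted p = 0.0235). The β-catΔEx3 value of Ifit1 was -1.81 without replicate 3 (adjusted p = 0.0957) and -3.16 without replicate 2 (adjusted p = 0.00744), and its call was also lost without β-catΔEx3 replicate 1 or WT replicate 1. Isg15 gave -2.86 without β-catΔEx3 replicate 2 and lost its call without replicate 1 (adjusted p = 0.0543). Ifit2, Ifit3 and Oas1a lost theirs without β-catΔEx3 replicate 1 or 3 (adjusted p between 0.0524 and 0.0713), and Rsad2 without β-catΔEx3 replicate 1 or 2 or WT replicate 1 or 4.

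The cytoplasmic RNA sensors of the set stayed closer to WT. Ddx58 (RIG-I) had log2 fold changes of -0.26 ± 0.24 in β-catΔEx3:Myc and -0.61 ± 0.26 in β-catΔEx3, and Ifih1 (MDA5) of -0.18 ± 0.19 and -0.58 ± 0.21, and neither gene passed the test in either group. Without β-catΔEx3 replicate 2, however, both passed in β-catΔEx3, Ddx58 at -0.90 and Ifih1 at -0.82. Oasl1, which holds back translation of Irf7, was not called either (0.07 ± 0.49 and 0.54 ± 0.53).

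Usp18 ran against the rest of the set. It removes Isg15 from proteins and, bound to the type I receptor, damps further signalling. Its log2 levels were 4.32, 4.22, 5.23 and 5.02 in β-catΔEx3:Myc livers, 4.09, 4.00 and 4.65 in β-catΔEx3 livers and 3.65, 3.30, 3.10 and 3.40 in WT livers. Every mutant liver was above every WT liver, as for 24.5% of all items in β-catΔEx3:Myc and 25% in β-catΔEx3, and the log2 fold change was 1.33 ± 0.26 in β-catΔEx3:Myc against WT (adjusted p = 0.00223) and 0.88 ± 0.28 in β-catΔEx3 against WT (adjusted p = 0.0292). The rise in β-catΔEx3 was small and lost its call without any 1 of WT replicates 2, 3 and 4 or β-catΔEx3 replicates 1 and 3 (adjusted p 0.0505 to 0.111), and under 4 other settings given in the closing section. On slide 4 alone Usp18 was 1.62 above WT in β-catΔEx3:Myc and 1.25 above WT in β-catΔEx3.

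**Figure D2:**
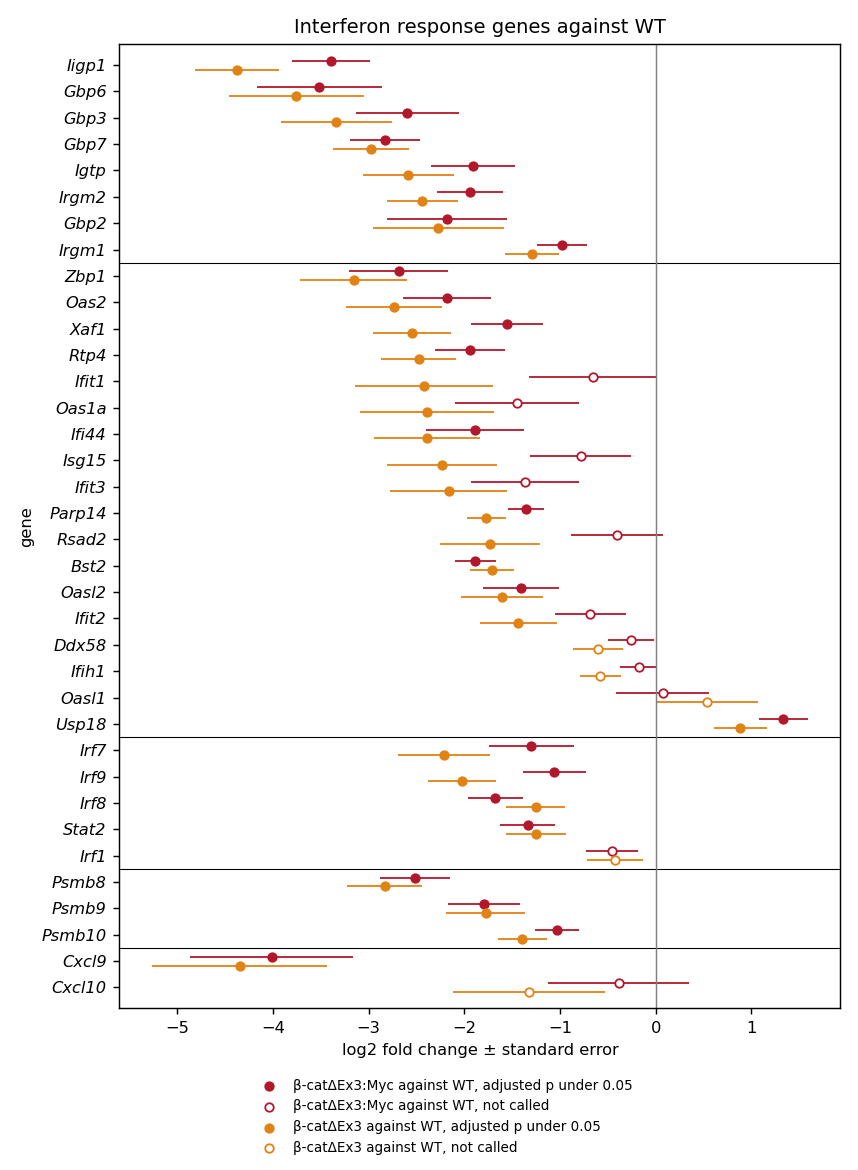
Points give the log2 fold change of each gene in β-catΔEx3:Myc (red) and β-catΔEx3 (orange) against WT, and bars give its standard error. Filled points passed an adjusted p of 0.05, open points did not, and all 8 GTPases and 3 immunoproteasome genes are filled in both comparisons while 9 of 18 type I genes are open in β-catΔEx3:Myc.

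Set side by side on the same arrays, the GTPases were further below the mean of the 4 WT livers than the type I genes in every mutant liver. Against WT replicate 4 alone, the WT liver of slide 4, this order was kept in β-catΔEx3:Myc replicate 4 (medians of -1.20 and -0.17). It was not kept in β-catΔEx3 replicate 3 (-2.22 for the GTPases and -2.29 for the type I genes). The median over the 8 GTPases of the log2 level minus the gene's WT mean was -2.91, -3.42, -2.08 and -1.57 in β-catΔEx3:Myc livers, -3.28, -2.25 and -2.74 in β-catΔEx3 livers and 0.05, 0.76, -0.41 and -0.32 in WT livers. The same median over the 18 type I genes was -1.55, -2.13, -0.86 and 0.02 in β-catΔEx3:Myc livers, -2.30, -1.39 and -2.23 in β-catΔEx3 livers and 0.20, -0.02, -0.21 and 0.02 in WT livers. In β-catΔEx3:Myc replicate 4 the type I genes went both ways, 9 of 18 below the gene's WT mean and 8 below every WT liver, while all 8 GTPases were below their WT mean and 7 below every WT liver.

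The gap between the lists, the type I median minus the GTPase median, was 1.36, 1.29, 1.22 and 1.59 in β-catΔEx3:Myc livers, 0.97, 0.86 and 0.52 in β-catΔEx3 livers and 0.15, -0.78, 0.21 and 0.34 in WT livers. The 3 groups did not overlap in this gap. The order of the mutant groups was the same on slide 2 (β-catΔEx3:Myc 1.36 and 1.29, β-catΔEx3 0.97 and 0.86) and on slide 4 (β-catΔEx3:Myc 1.59, β-catΔEx3 0.52, with WT at 0.34). All these gaps are measured from the mean of the 4 WT livers, of which slide 4 holds only WT replicate 4. Against that liver alone, β-catΔEx3 replicate 3 had no such gap (medians of -2.22 for the GTPases and -2.29 for the type I genes). The gap is a description of these lists on these arrays and carries no test. WT replicate 2 was the only liver with its GTPases above its type I genes, and it also had the highest Cxcl9 and Ifng of all livers.

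**Figure D3:**
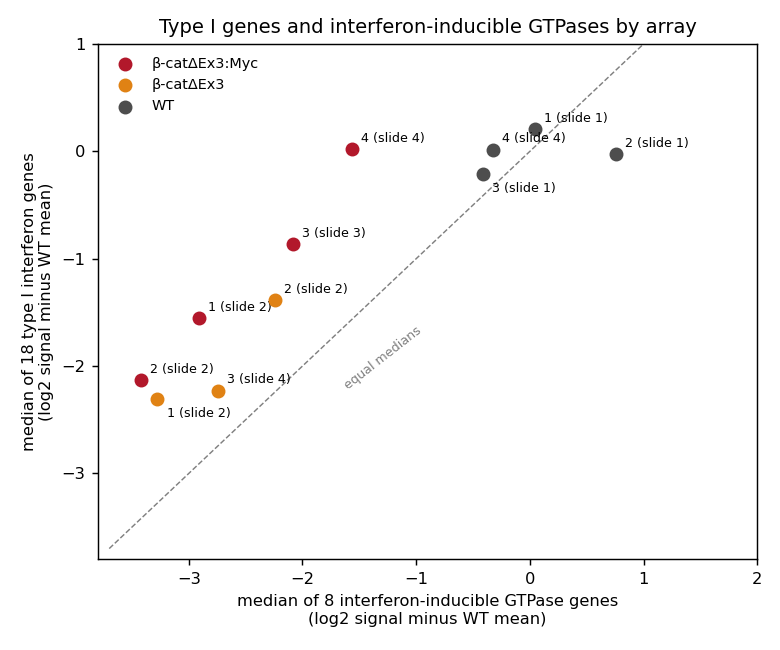
Each point is 1 array, labelled with its replicate and slide, placed by the median log2 level minus WT mean of the 8 GTPases (x axis) and of the 18 type I genes (y axis). All 7 mutant arrays lie above the dashed line of equal medians, the β-catΔEx3:Myc arrays farther from it than the β-catΔEx3 arrays.

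Of the 5 transcription factors, 4 fell in both mutant groups. Irf8, which is made mainly in macrophages and dendritic cells and directs their development, read 0.48, 0.16, 0.07 and 1.12 in β-catΔEx3:Myc livers, 0.87, 0.60 and 1.15 in β-catΔEx3 livers and 1.85, 2.75, 2.20 and 1.72 in WT livers. No mutant liver reached the WT range, and the log2 fold change was -1.67 ± 0.28 in β-catΔEx3:Myc against WT (adjusted p = 0.00112) and -1.25 ± 0.31 in β-catΔEx3 against WT (adjusted p = 0.00939). Stat2, a part of the complex that binds the ISRE, read 3.54, 2.71, 2.93 and 3.55 in β-catΔEx3:Myc livers, 2.53, 3.82 and 3.45 in β-catΔEx3 livers and 4.76, 4.50, 4.50 and 4.32 in WT livers. The groups did not overlap, and the log2 fold change was -1.34 ± 0.29 in β-catΔEx3:Myc against WT (adjusted p = 0.00414) and -1.25 ± 0.31 in β-catΔEx3 against WT (adjusted p = 0.0104).

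Irf7, which amplifies type I interferon production, read -0.90, -1.98, -0.33 and 0.37 in β-catΔEx3:Myc livers, -1.73, -0.90 and -2.24 in β-catΔEx3 livers and 0.80, 0.52, 0.50 and 0.55 in WT livers. β-catΔEx3:Myc replicate 4 was just below the WT livers and β-catΔEx3 replicate 3 was the lowest of all, and the log2 fold change was -1.30 ± 0.45 in β-catΔEx3:Myc against WT (adjusted p = 0.0369) and -2.22 ± 0.48 in β-catΔEx3 against WT (adjusted p = 0.00517). Irf9, the DNA-binding part of the complex with Stat2, read 2.01, 1.71, 3.15 and 2.89 in β-catΔEx3:Myc livers, 1.46, 1.91 and 1.06 in β-catΔEx3 livers and 3.86, 3.46, 3.16 and 3.53 in WT livers. β-catΔEx3:Myc replicate 3 nearly reached the lowest WT liver, and the log2 fold change was -1.06 ± 0.33 in β-catΔEx3:Myc against WT (adjusted p = 0.0241) and -2.03 ± 0.35 in β-catΔEx3 against WT (adjusted p = 0.0017). In β-catΔEx3:Myc the call of Irf7 was lost without any 1 of the 4 WT livers or β-catΔEx3:Myc replicates 1 and 2 (adjusted p 0.0642 to 0.0821), and that of Irf9 without WT replicate 1 or β-catΔEx3:Myc replicate 1 or 2 (adjusted p 0.0649 to 0.0659). Irf1, an early target of interferon γ, was not called, with -0.45 ± 0.27 in β-catΔEx3:Myc and -0.43 ± 0.29 in β-catΔEx3.

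The 3 immunoproteasome subunits, which replace the constitutive catalytic subunits and change the peptides cut for MHC class I, fell in both mutant groups. Psmb8 read 1.54, 1.55, 1.73 and 2.57 in β-catΔEx3:Myc livers, 1.26, 2.37 and 0.95 in β-catΔEx3 livers and 4.07, 5.10, 3.99 and 4.28 in WT livers. The mutant and WT ranges lay more than 1 log2 unit apart, and the log2 fold change was -2.51 ± 0.37 in β-catΔEx3:Myc against WT (adjusted p = 0.000472) and -2.83 ± 0.40 in β-catΔEx3 against WT (adjusted p = 0.000543). Psmb9 gave -1.79 ± 0.38 in β-catΔEx3:Myc and -1.78 ± 0.41 in β-catΔEx3, with 2.59, 2.25, 2.59 and 3.34 in β-catΔEx3:Myc livers, 2.33, 3.47 and 2.33 in β-catΔEx3 livers and 4.01, 5.47, 4.13 and 4.34 in WT livers. Psmb10 gave -1.03 ± 0.23 and -1.39 ± 0.25, with 5.57, 5.28, 4.92 and 5.78 in β-catΔEx3:Myc livers, 4.89, 5.51 and 4.68 in β-catΔEx3 livers and 6.27, 6.71, 6.24 and 6.46 in WT livers. Neither gene's mutant livers overlapped WT. Of their constitutive counterparts, Psmb5 rose in both groups (0.70 ± 0.16 and 1.07 ± 0.17), while Psmb6 (0.20 ± 0.13 and 0.24 ± 0.14) and Psmb7 (0.38 ± 0.23 and 0.61 ± 0.24) did not pass the test.

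Cxcl9 fell and Cxcl10 did not pass the test. Both are ligands of Cxcr3 that draw activated T cells and NK cells, and Cxcl9 is the one known to depend on interferon γ. Cxcl9 read -2.08, -2.04, -1.74 and 0.34 in β-catΔEx3:Myc livers, -1.62, -0.57 and -2.95 in β-catΔEx3 livers and 1.59, 5.07, 2.13 and 1.75 in WT livers. WT replicate 2 stood far above the other WT livers and β-catΔEx3:Myc replicate 4 far above its group, and the log2 fold change was -4.01 ± 0.85 in β-catΔEx3:Myc against WT (adjusted p = 0.00366) and -4.35 ± 0.92 in β-catΔEx3 against WT (adjusted p = 0.00446). Without WT replicate 2 the values were -3.20 (adjusted p = 0.00587) and -3.54 (adjusted p = 0.00627), and without β-catΔEx3 replicate 3 the β-catΔEx3 value was -3.73. Cxcl10, which also answers to type I interferon and to NF-κB, read 2.40, 0.42, 0.59 and 3.39 in β-catΔEx3:Myc livers, -0.13, 2.15 and 0.26 in β-catΔEx3 livers and 1.92, 3.30, 1.46 and 1.67 in WT livers. Its groups overlapped, β-catΔEx3:Myc replicate 4 being the highest liver, and its log2 fold changes were -0.39 ± 0.74 and -1.33 ± 0.80 (95% intervals -2.02 to 1.24 and -3.09 to 0.44).

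**Figure D4:**
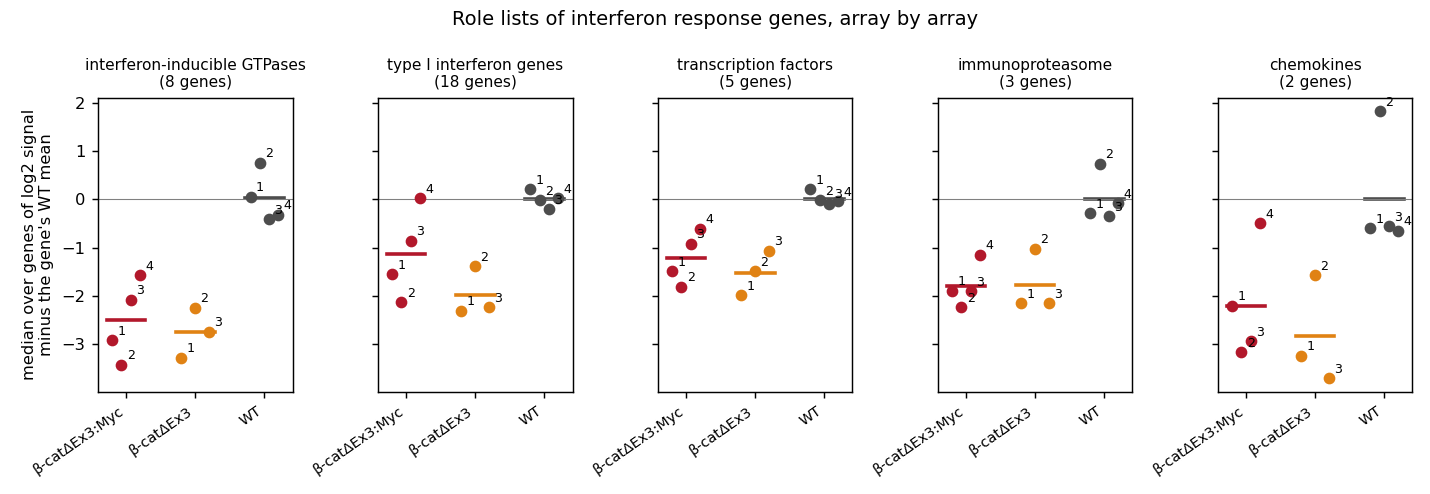
Each point is 1 array, numbered by replicate, and gives the median over the genes of a role of the log2 level minus the gene's WT mean, with the mean of each group as a line. β-catΔEx3:Myc replicate 4 is the highest mutant array for the GTPases, the type I genes, the transcription factors and the chemokines, and WT replicate 2 the highest WT array for the GTPases, immunoproteasome and chemokines.

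Of 15 interferons and inducing cytokines listed, 8 could be tested, of which 3 fell and 1 rose in each mutant group (37.5% and 12.5%). Of all items, 17.3% fell and 24.8% rose in β-catΔEx3:Myc, and 15.4% fell and 21.8% rose in β-catΔEx3. None of the 8 fell in β-catΔEx3 without its replicate 3. Ifnb1 was above background on no array, while Ifnk, an interferon of skin keratinocytes, and the λ interferon Ifnl3 were above background on all 11 and were not called (0.08 ± 0.38 and -0.66 ± 0.41 for Ifnk, -0.18 ± 0.27 and 0.23 ± 0.29 for Ifnl3, in β-catΔEx3:Myc and β-catΔEx3). Ifng, made by T cells and NK cells, was above background on 3 of 4 WT arrays and on no mutant array, so that its level was at least 1.14-fold lower in β-catΔEx3:Myc and at least 1.51-fold lower in β-catΔEx3. The limma adjusted p-values (0.0225 and 0.0173) belong to the fit of the measured signals, mutant signals at background included, and not to the bounds. These bounds set the mean of all 4 WT arrays against the lowest signal that counted as well above background on each mutant array, or the probe's own signal where that was higher. WT replicate 2 held the highest Ifng value (-2.32, with -4.39, -4.59 and -5.47 in the other WT livers), and without it the ratio to that lowest signal was 0.74 in β-catΔEx3:Myc and 0.983 in β-catΔEx3, so that no bound remained. The calls in β-catΔEx3:Myc and β-catΔEx3 were lost without β-catΔEx3:Myc replicate 2 and β-catΔEx3 replicate 3 (adjusted p = 0.058 and 0.0517). Il18, which drives interferon γ production, fell in β-catΔEx3:Myc and β-catΔEx3 by 1.23 and 1.33 on the log2 scale, and lost its call in β-catΔEx3 without WT replicate 2 or β-catΔEx3 replicate 1 or 3. Ifna2, an α interferon, was the 1 that rose and was above background on 2 of 4 β-catΔEx3:Myc arrays, 1 of 3 β-catΔEx3 arrays and no WT array. Its level was at least 1.13-fold and 1.09-fold higher than in WT, each call was lost when WT replicate 1 or 2 was left out, among others, and no bound remained in β-catΔEx3 without its replicate 2.

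Cells that make interferon γ were followed by 14 markers of T and NK cells. Of the 11 tested, 7 fell and 2 rose in β-catΔEx3:Myc (63.6% and 18.2%, against 17.3% and 24.8% of all items). In β-catΔEx3, 6 fell and 1 rose (54.5% and 9.09%, against 15.4% and 21.8% of all items). Their summed linear signal ranged from 26.1 to 52.2 in β-catΔEx3:Myc, 20.5 to 50.9 in β-catΔEx3 and 64.0 to 73.7 in WT livers. Ncr1 was at background in all 3 groups, Cd8a and Klrb1c in both mutant groups, Cd8b1 in β-catΔEx3:Myc, and Cd3g and Cd2 in β-catΔEx3. No probe of Cd8a or Klrb1c was above background on more than 1 of the 11 arrays, so these genes were hardly detected in WT either and were not tested. B cell markers fell in both mutant groups (3 of 3 tested), with sums of 0.185 to 0.469 in β-catΔEx3:Myc, 0.164 to 0.416 in β-catΔEx3 and 1.88 to 3.02 in WT livers. Of dendritic cell markers, 3 of 7 fell in β-catΔEx3:Myc and 4 of 7 in β-catΔEx3, and the summed signals overlapped. Of 8 endothelial markers, 6 fell in β-catΔEx3:Myc and 5 in β-catΔEx3, with sums of 31.9 to 51.1, 63.1 to 82.2 and 132 to 154 in β-catΔEx3:Myc, β-catΔEx3 and WT livers. Of 6 neutrophil markers tested, 2 rose in β-catΔEx3:Myc and 1 in β-catΔEx3 (33.3% and 16.7%, against 24.8% and 21.8% of all items). None was called lower, although 5 of the 6 had a negative log2 fold change in β-catΔEx3. Their summed signal was highest in β-catΔEx3:Myc replicate 4, at 95.2, against 9.97 to 51.1 in the other β-catΔEx3:Myc livers, 6.54 to 15.7 in β-catΔEx3 and 8.91 to 14.2 in WT livers. The part of these cells in the values of the interferon response genes was not tested, and in whole liver fewer cells of a type and less RNA per cell cannot be told apart.

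The chains of the type I and γ receptors, Ifnar1, Ifnar2, Ifngr1 and Ifngr2 did not pass the test in either group, with log2 fold changes between -0.51 and -0.12 in β-catΔEx3:Myc and between -0.57 and -0.20 in β-catΔEx3. The calls of Ifnar1 and Ifnar2 were close to the threshold (in β-catΔEx3 adjusted p = 0.0517 and 0.0579), and each passed it in β-catΔEx3 without β-catΔEx3 replicate 1. Of the 9 receptors and kinases, 2 fell and 1 rose in β-catΔEx3:Myc (22.2% and 11.1%, where 17.3% and 24.8% of all items did), and 3 fell and 1 rose in β-catΔEx3 (33.3% and 11.1%, where 15.4% and 21.8% of all items did). The number that fell was 4 in β-catΔEx3:Myc without β-catΔEx3 replicate 3 and 1 in β-catΔEx3 without WT replicate 2. Jak2, the kinase of the interferon γ receptor, fell in both (-0.87 ± 0.15 and -0.87 ± 0.16), as did Tyk2, the kinase of Ifnar1 (-0.75 ± 0.14 and -0.53 ± 0.16), whose call in β-catΔEx3 was lost without WT replicate 2 or β-catΔEx3 replicate 1. Il10rb, shared by the receptors of interferon λ and interleukin 10, fell in β-catΔEx3 (-0.74 ± 0.23) and lost that call without any 1 of 4 livers.

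Ifnlr1, the specific chain of the interferon λ receptor, rose. Its log2 levels were -0.26, -0.56, -1.14 and -0.93 in β-catΔEx3:Myc livers, -0.42, -0.67 and 0.72 in β-catΔEx3 livers and -3.63, -3.20, -5.00 and -4.72 in WT livers. All mutant livers were more than 2 log2 units above all WT livers, and the log2 fold change was 3.41 ± 0.44 in β-catΔEx3:Myc against WT (adjusted p = 0.000232) and 4.01 ± 0.47 in β-catΔEx3 against WT (adjusted p = 0.000211). Of the WT livers 2 were above background, so the size of this difference rests in part on WT signals that were not well above background. With slide as a block the values were 4.38 and 4.84 (adjusted p = 0.0268 and 0.0193).

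Among 7 other Stat and Irf factors tested, 4 fell in each mutant group (57.1%, against 17.3% and 15.4% of all items) and none rose, and 2 fell in β-catΔEx3 without WT replicate 2 or β-catΔEx3 replicate 2. Irf5, which acts in macrophages downstream of Toll-like receptors, read -1.60, -3.07, -2.68 and -1.80 in β-catΔEx3:Myc livers, -3.27, -1.79 and -1.93 in β-catΔEx3 livers and 1.80, 1.63, 1.37 and 1.50 in WT livers. The mutant and WT livers were separated by about 3 log2 units, and the log2 fold change was -3.87 ± 0.39 in β-catΔEx3:Myc against WT (adjusted p = 5.79e-05) and -3.91 ± 0.42 in β-catΔEx3 against WT (adjusted p = 0.000123). Irf2, a repressor that competes with Irf1, fell by 1.68 in β-catΔEx3:Myc and 1.69 in β-catΔEx3 on the log2 scale. Irf5 and Irf2 were also called with slide as a block. Irf3, which starts the type I response and is present without interferon, did not pass the test (0.04 ± 0.13 and 0.31 ± 0.14).

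Of 11 genes listed here as negative regulators of the pathway, 3 fell in each mutant group (27.3%, against 17.3% and 15.4% of all items) and 1 rose in β-catΔEx3:Myc. In β-catΔEx3 the 3 were Socs1, Ptpn1 and Isg20, and 1 was left without any 1 of WT replicates 1 to 3 or β-catΔEx3 replicates 1 and 3. Isg20 is an interferon-induced exonuclease, so its fall is not that of a negative regulator. In β-catΔEx3:Myc none rose without any 1 of WT replicates 2 to 4 or of the 4 β-catΔEx3:Myc livers. Socs1, which is induced by interferon and blocks the Janus kinases, fell by 2.31 in β-catΔEx3:Myc and 1.93 in β-catΔEx3. Of 12 nucleic acid sensors and adaptors, 6 fell in β-catΔEx3:Myc (50%, against 17.3% of all items), and 5 fell and 1 rose in β-catΔEx3 (41.7% and 8.33%, against 15.4% and 21.8%). The 6 were 3 without any 1 of WT replicates 2 and 3 or β-catΔEx3:Myc replicates 1 and 2, the 5 were 2 without β-catΔEx3 replicate 1, and of the 11 livers WT replicate 3 was the only one whose omission kept the 1 that rose. Sting1, which relays signals of cytoplasmic DNA, gave -2.08 ± 0.28 and -1.20 ± 0.31, and Ifi204, a DNA sensor, -1.36 ± 0.28 and -1.41 ± 0.30. The Sting1 call in β-catΔEx3 was lost without β-catΔEx3 replicate 1 (adjusted p = 0.0511).

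Of 39 further interferon-induced genes that could be tested, 20 fell in β-catΔEx3:Myc and 26 in β-catΔEx3 (51.3% and 66.7%, against 17.3% and 15.4% of all items), and none rose. Without β-catΔEx3 replicate 1 the 26 were 17. Their medians were -1.04 and -1.46. Gbp5, a guanylate-binding protein outside the set that promotes inflammasome assembly, fell by 2.85 and 2.83, and Gbp8 was at background in every mutant liver and at least 5.48-fold and 6.82-fold lower than in WT. Ifitm3, which blocks the entry of viruses, ranged from 5.07 to 6.30 in β-catΔEx3:Myc livers, from 4.45 to 5.01 in β-catΔEx3 livers and from 7.57 to 7.82 in WT livers. The WT livers lay close together and above every mutant liver, and the log2 fold change was -1.95 ± 0.25 in β-catΔEx3:Myc against WT (adjusted p = 0.000232) and -2.91 ± 0.27 in β-catΔEx3 against WT (adjusted p = 5.22e-05). Ifi27l2a fell by 2.51 and 2.60.

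No interferon response gene passed the test between β-catΔEx3:Myc and β-catΔEx3. None of the 36 was called by limma, where 0.206% of all items were called lower and 0.13% higher. A fit of these groups alone called none either. In the limma fit 6 had an unadjusted p under 0.05 (Iigp1, Isg15, Ifit1, Rsad2, Xaf1 and Irf9, all higher in β-catΔEx3:Myc). The share of all items under that unadjusted p was not counted, so the 6 cannot be set against it. All 36 genes overlapped between the groups, where 4.58% of all items lay wholly lower and 3.59% wholly higher in β-catΔEx3:Myc, and the median difference was 0.46. The largest difference was that of Ifit1, 1.76 ± 0.72 with a 95% interval of 0.17 to 3.36 (adjusted p = 0.428). Isg15 differed by 1.45 ± 0.57 (95% interval 0.18 to 2.72) and Iigp1 by 0.99 ± 0.44 (0.01 to 1.96). Among the GTPase and immunoproteasome genes, Psmb9 and Gbp2 differed least, with -0.02 ± 0.41 (-0.93 to 0.89) and 0.09 ± 0.68 (-1.42 to 1.60).

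The slides that hold both mutant groups gave unlike values for this difference. On slide 2, with 2 livers in each group, 24 of 36 genes were lower in β-catΔEx3:Myc than in β-catΔEx3 and the median difference was -0.06. On slide 4, with 1 liver in each, 33 of 36 were higher in β-catΔEx3:Myc and the median difference was 1.59. The same counts were not made over all items, so whether the set stands out on either slide cannot be told. Ifit1 differed by 0.09 on slide 2 and by 4.23 on slide 4, Oas1a by -0.16 and 3.26, and Iigp1 by -0.01 and 2.35.

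Slide 4 is also the only slide with WT beside mutant livers. There β-catΔEx3:Myc replicate 4 was below WT replicate 4 for 28 of 36 genes, with a median difference of -0.65 over all 36, -1.20 for the GTPases and -0.17 for the type I genes. β-catΔEx3 replicate 3 was below the same WT liver for 34 of 36 genes, with medians of -2.00 over all 36, -2.22 for the GTPases and -2.29 for the type I genes. These counts too have no share of all items beside them. When slide was fitted as a block, the comparison with WT rested on WT replicate 4 alone, and the median standard error over all items was 0.36, against 0.23 and 0.24 without the block. The blocked log2 fold changes of Iigp1 were -3.13 in β-catΔEx3:Myc and -3.90 in β-catΔEx3 (adjusted p = 0.0499 and 0.0281). With the block the medians over the 36 genes were -1.12 and -1.63.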

How the data were processed

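RNA of 11 livers was read on 1-colour (Cy3) Agilent arrays. Per the file headers, the authors extracted the images with Agilent Feature Extraction 10.7.1.1 and deposited processed intensity per spot, on a linear scale after background subtraction, with flags for outlier, saturated and well-above-background spots. They also deposited log2 values for the same arrays, which rank the probes as the intensities do. Every array has the same median there (4.51), and values of equal rank differ between arrays by at most 0.002, the pattern that quantile normalization gives, although no label or header names that step.

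Outlier spots (137 to 209 of 59305 per array) were dropped, replicate spots were averaged as log2 values (55681 probes), and the 75th percentile of each array was subtracted. A probe had to be well above background on 3 or more arrays (29697 were). Accessions were matched to RefSeq symbols, which named 26582 probes, and each gene was read from its brightest probe by mean level. This left 22283 items, 13963 with a symbol. Genome positions of probes were not used.

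Group means were fitted to all 11 arrays with limma 3.58.1 in R 4.3.3 (data.table, version 1.17.8, for reading), with 8 residual and 2.52 prior degrees of freedom. Tests were 2-sided, adjusted by Benjamini-Hochberg over all items, with calls at 0.05, and the ± values are standard errors of a difference. The procedure was tested on simulated data. The number of arrays limits the precision. The labels name single mice, so p-values measure the spread between mice of a group.

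The genes, their roles, the marker lists and the tests were chosen with earlier results of these data known. Values by array are given for up to 3 called genes of each role and comparison with the largest change and for genes that moved against their role. Outside the set, the 3 most changed called genes per list could be named, or the brightest gene of a list without calls, with Ifnb1, Ifng and the receptor chains in any case. Of the list of other Stat and Irf factors, 2 genes are not reported here and were left out of its counts. The genes shown beyond this, Isg15, Ifit1, Oas1a, Cxcl10, Ifnk, Ifnl3, Psmb6, Psmb7, Myc and Ctnnb1, were added after their values were seen. Alternatives were quantile normalization, the deposited table, other scaling, background, filter and probe rules, slide as a block, only the groups compared, and each replicate left out. Counts of the other lists and bounds with 1 array left out were added after seeing the data.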

Additional observations from a re-analysis of the deposited data

Results flagged for a closer look

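In 3 of 72 checks (36 genes in each group of 4 livers), 1 array stood apart from its group by Dixon's test, and chance alone gives about 1 in 20. The Cxcl9 level of β-catΔEx3:Myc replicate 4 was 0.344, and the next highest of its group was -1.74. The Cxcl9 level of WT replicate 2 was 5.06, and the next highest WT liver had 2.13. The Irf7 level of WT replicate 1 was 0.803, and the next highest WT liver had 0.553.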

How the results depend on the processing

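No paired analysis was possible because the labels number single mice and share no number between groups. With slide as a fixed block, 2 genes were called lower in each comparison with WT, the GTPase median was -1.41 in β-catΔEx3:Myc and -1.90 in β-catΔEx3, and the type I median was -0.79 in β-catΔEx3:Myc and -1.61 in β-catΔEx3, since only WT replicate 4 shares a slide with mutant livers. The genes called higher in β-catΔEx3 numbered 0 with scaling on probes detected on every array, quantile normalization, the deposited table, and no filter on dim probes. Other settings left 23 or 24 genes lower in β-catΔEx3:Myc and 30 to 32 lower in β-catΔEx3, and no called gene of the set changed direction. With slide as a random block (correlation 0.0911) 23 and 30 fell. Leaving out 1 replicate at a time gave 21 to 27 lower and 1 higher in β-catΔEx3:Myc, with GTPase medians of -2.87 to -2.02 and type I medians of -1.59 to -0.93. It gave 23 to 31 lower and 0 to 1 higher in β-catΔEx3, with GTPase medians of -2.92 to -2.53 and type I medians of -2.21 to -1.78. Between the mutant groups 0 genes were called in every setting, with GTPase medians of 0.21 to 0.75 and type I medians of 0.28 to 0.87. Background correction with normexp was run on median signals, an alternative chosen after seeing the data, because the files hold no mean signals, and the planned version on mean signals was not run. Dim probes such as Ifng and Ifna2 allow only bounds.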
